A study of Homo sapiens with 44 samples.

Results

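The joint response of A549 cells to dexamethasone and tumour necrosis factor after knockdown of IRF2BP2 was examined, with the response to each agent alone set beside it. A549 is a human lung adenocarcinoma line with features of the alveolar epithelium. The comparison rests on 6 of the 44 samples of the series, 3 that received both agents and 3 that received vehicle, and was chosen by siRNA and treatment, not by measured values. All groups used here were A549 cells kept in steroid-depleted medium. They were transfected with siIRF2BP2, a small interfering RNA against IRF2BP2, or with siNON, a non-targeting control, each at 20 nM for 72 h. The siIRF2BP2 cells then received 100 nM dexamethasone (dex) with 10 ng/ml tumour necrosis factor (TNF), 100 nM dex, 10 ng/ml TNF, or ethanol as vehicle, for 6 h, and the siNON cells received the same 4 treatments. Each of these 8 groups has 3 replicates, 24 samples in all, and the labels do not say that each replicate came from a separate culture, so the spread behind the p-values may be technical in part.

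Dex is a synthetic glucocorticoid. It binds the glucocorticoid receptor, a nuclear receptor that raises some genes by binding DNA and lowers many inflammatory genes, in large part by interfering with NF-kB and AP-1. TNF binds its receptors at the cell surface and releases NF-kB from its inhibitors, so that NF-kB enters the nucleus and raises chemokines, adhesion molecules, survival genes and its own inhibitors. In airway epithelium the glucocorticoid receptor and NF-kB are known to oppose each other at cytokine genes and to act together at some acute phase and feedback genes. IRF2BP2 is a zinc finger and RING domain cofactor known mainly for repressing transcription.

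The deposited table holds 1 pooled column per group, so a level below is the authors' FPKM over the 3 replicates, with no spread. FPKM here was divided by the genomic span of the transcript, introns included, and levels are therefore compared between groups and not between genes. Every fold change and call is from the authors' deposited table, where a positive log2 fold change means higher with dex plus TNF, or with the agent named, and a call is a false discovery rate (FDR) under 0.05. Whole reads were recovered from the columns, which held 35.8 M (mega) tags for dex plus TNF, 36.0 M for dex, 47.4 M for TNF and 37.5 M for vehicle in siIRF2BP2 cells, and 43.3 to 56.9 M in siNON cells. Of 25689 genes in the table, 13594 reached 1 CPM (reads scaled to the same total of tags in every column) on average. The 14 markers of A549 cells summed to 21078 CPM with dex plus TNF and 25522 CPM with vehicle, while 11 markers of HEK293 cells, the other line of the series, summed to 35.0 and 68.1 CPM. The 18 markers of blood, endothelial and fibroblast cells summed to 65.4 CPM with dex plus TNF and 102 CPM with vehicle, with 3 of them listed at 0 in all 4 siIRF2BP2 columns.

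IRF2BP2 itself lies on the minus strand of chromosome 1 (hg19, 234740015 to 234745271). It had 17.9 FPKM with dex plus TNF, 22.9 with dex, 21.4 with TNF and 26.3 with vehicle in siIRF2BP2 cells. In siNON cells the levels were 25.4, 31.3, 26.3 and 29.7 FPKM under the same treatments. In these pooled levels, which have no spread, the gene was lower with siIRF2BP2 under each treatment. It was least so with vehicle (26.3 against 29.7 FPKM). Its lowest level was in the cells studied here, siIRF2BP2 with both agents. Against siNON under both agents the log2 fold change was -0.62, and against siIRF2BP2 vehicle it was -0.42 (FDR = 0.00052), both called in the authors' deposited table. The targeted gene was thus lowered in part, and it also moved with the treatment.

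Below are 4 promoters as examples of sequence that precedes genes of the joint response, the 250 bases before each start from RefSeq (GRCh38.p14), written 5′ to 3′ on the gene's strand. They were chosen after the values were seen. CCL20 and CXCL2 stood between the levels with dex and with TNF, and BIRC3 and TNFAIP3 stood above both. Capitals mark matches, on either strand, to an NF-kB motif of GGG, any 2 bases and TTTCC.
CCL20, chr2:227813592-227813841, plus strand: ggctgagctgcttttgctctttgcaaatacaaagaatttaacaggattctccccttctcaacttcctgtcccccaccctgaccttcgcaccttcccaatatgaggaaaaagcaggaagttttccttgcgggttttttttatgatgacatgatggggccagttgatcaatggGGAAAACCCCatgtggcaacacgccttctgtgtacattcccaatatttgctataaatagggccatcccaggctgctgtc
CXCL2, chr4:74099196-74099445, minus strand: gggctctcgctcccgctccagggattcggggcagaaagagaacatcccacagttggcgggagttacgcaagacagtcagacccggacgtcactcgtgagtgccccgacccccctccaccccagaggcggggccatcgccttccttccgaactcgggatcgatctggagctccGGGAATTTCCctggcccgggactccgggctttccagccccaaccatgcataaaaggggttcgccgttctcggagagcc
BIRC3, chr11:102317234-102317483, plus strand: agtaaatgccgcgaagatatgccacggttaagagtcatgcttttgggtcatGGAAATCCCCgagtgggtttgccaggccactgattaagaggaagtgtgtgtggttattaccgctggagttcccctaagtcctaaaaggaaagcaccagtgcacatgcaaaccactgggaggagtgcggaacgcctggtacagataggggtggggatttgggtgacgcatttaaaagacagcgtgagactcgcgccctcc
TNFAIP3, chr6:137867009-137867258, plus strand: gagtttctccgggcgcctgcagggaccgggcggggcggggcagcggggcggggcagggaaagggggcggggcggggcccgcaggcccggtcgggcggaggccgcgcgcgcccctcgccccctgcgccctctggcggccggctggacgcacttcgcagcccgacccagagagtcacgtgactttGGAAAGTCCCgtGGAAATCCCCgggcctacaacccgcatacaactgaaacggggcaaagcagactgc
The match ends 69 bases before the start in CCL20, 68 in CXCL2 and 189 in BIRC3, and TNFAIP3 has 2 matches, which end 57 and 45 bases before it. At least 1 match was found in 2.12% of the 27305 genes with an entry in the RefSeq table and in 2.72% of the 10020 genes of at least 1 CPM with an entry. Among genes above dex and below TNF it was 29 of 243 (11.9%), among genes above both single agents 16 of 470 (3.4%), among genes below both 4 of 248 (1.61%) and among genes below dex and above TNF 1 of 157 (0.637%). The full glucocorticoid response element, AGAACA, any 3 bases and TGTTCT, was found in 1 of the 27305 genes, and AGAACA alone, a shorter site that also lies within it, in 14.8%. Of the printed sequences only CXCL2 holds AGAACA. The AP-1 motif TGACTCA was found in 5.19% of the 27305 genes and in none of the printed sequences. Among genes of at least 1 CPM with an entry, AGAACA was found in 10.9% and TGACTCA in 4.18%. By class, in the order given for NF-kB, AGAACA was found in 9.47%, 13.2%, 16.5% and 16.6%. TGACTCA was found in 10.7%, 7.87%, 4.44% and 9.55% in that order. These matches are of letters in a short window and are given as a description.

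With both agents, 3626 genes were called higher (14.1% of all genes) and 3333 lower (13.0%) than with vehicle, and the log2 fold change was 1 or more in size for 1051 (4.09%) and 739 (2.88%) of them. Among genes of at least 1 CPM, 24.8% were called higher and 22.8% lower, and the list counts below are to be read beside these shares. Dex alone had 2245 genes higher (8.74%) and 1789 lower (6.96%), and TNF alone 3156 higher (12.3%) and 3147 lower (12.3%), all called in the authors' deposited table. Against dex alone, both agents together gave 2840 genes higher (11.1%) and 2239 lower (8.72%), and against TNF alone 2234 higher (8.7%) and 1888 lower (7.35%). The 3 responses share the vehicle samples, and the 3 comparisons with dex plus TNF share those samples, so the counts are side by side and are not independent of each other.

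The 12 largest rises included SERPINA3, CCL20, ICAM1 and IRAK3. SERPINA3, a secreted protease inhibitor of the acute phase on chromosome 14 (hg19, 95078714 to 95090390), had 87.8 FPKM with dex plus TNF, 3.62 with dex, 15.3 with TNF and 0.740 with vehicle. CCL20, a chemokine that attracts dendritic cells and lymphocytes through CCR6, had 19.8 FPKM with dex plus TNF, 0.142 with dex, 49.2 with TNF and 0.158 with vehicle. ICAM1, an adhesion molecule for leukocytes, had 34.2, 0.129, 41.8 and 0.303 FPKM under the same treatments. SERPINA3 was highest with both agents, whereas CCL20 and ICAM1 were highest with TNF alone. The log2 fold changes of dex plus TNF over vehicle were 7.03 for SERPINA3, 7.08 for CCL20 and 6.96 for ICAM1 in the authors' deposited table. IRAK3, a kinase relative that restrains Toll-like receptor signals, had 1.04 FPKM with dex plus TNF, 0.232 with dex, 0.142 with TNF and 0.009 with vehicle, where it had 22 reads (log2 fold change 7.03 in the authors' deposited table).

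Others of the 12 largest rises had at most 3 reads with vehicle, and only their levels are given. SAA1, an acute phase apolipoprotein, had 3.17 FPKM with dex plus TNF, 0.232 with dex and 0.267 with TNF, and was listed at 0 with vehicle. Its near-identical neighbour SAA2 had 1.91, 0.016, 0.188 and 0.005 FPKM, and reads of SAA1, SAA2 and the read-through SAA2-SAA4 may be split between them. SCNN1G, a subunit of the epithelial sodium channel, had 0.310 FPKM with dex plus TNF, 0.098 with dex, 0.004 with TNF and 0.001 with vehicle. SAA1, SAA2 and SCNN1G were highest with both agents. NOD2, a sensor of bacterial cell walls, had 0.311 FPKM with dex plus TNF and 0.303 with TNF, and CXCL10, a chemokine for T cells, had 3.02 and 3.12 FPKM, both listed at 0 with vehicle. UBD, a ubiquitin-like modifier, had 5.01 FPKM with dex plus TNF, 0.039 with dex, 12.1 with TNF and 0.012 with vehicle, and PTX3, a soluble pattern recognition protein, had 1.05, 0.016, 1.58 and 0.008 FPKM.

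The genes with the largest falls included CYP24A1, the enzyme that breaks down vitamin D hormone, on chromosome 20 (hg19, 52769988 to 52790516). It had 7.15 FPKM with dex plus TNF, 17.6 with dex, 50.5 with TNF and 94.5 with vehicle. HES1, a repressor downstream of Notch, had 0.995, 2.96, 1.84 and 9.09 FPKM under the same treatments. IL11, a cytokine of the IL6 family, had 0.179, 0.365, 0.986 and 1.61 FPKM. Each of these genes was lowest with both agents and highest with vehicle. Log2 fold changes of dex plus TNF over vehicle were -3.61 for CYP24A1, -3.01 for HES1 and -2.99 for IL11 in the authors' deposited table. VAV3, a guanine nucleotide exchange factor, had the largest fall, at -4.05 in the authors' deposited table, with 70 reads with dex plus TNF and 1270 with vehicle. PDE7B, a phosphodiesterase for cyclic AMP, stood at -3.37 and TFEC, a transcription factor of the MiT family, at -2.98. Also among the 12 were MARCH4 at -3.31, KCNE4, a potassium channel subunit, at -3.08, ST8SIA4, a polysialyltransferase, at -2.93, HR at -2.84, and the secreted antagonists of BMP and activin GREM1 at -2.84 and FST at -2.83, all in the authors' deposited table.

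**Figure D1:**
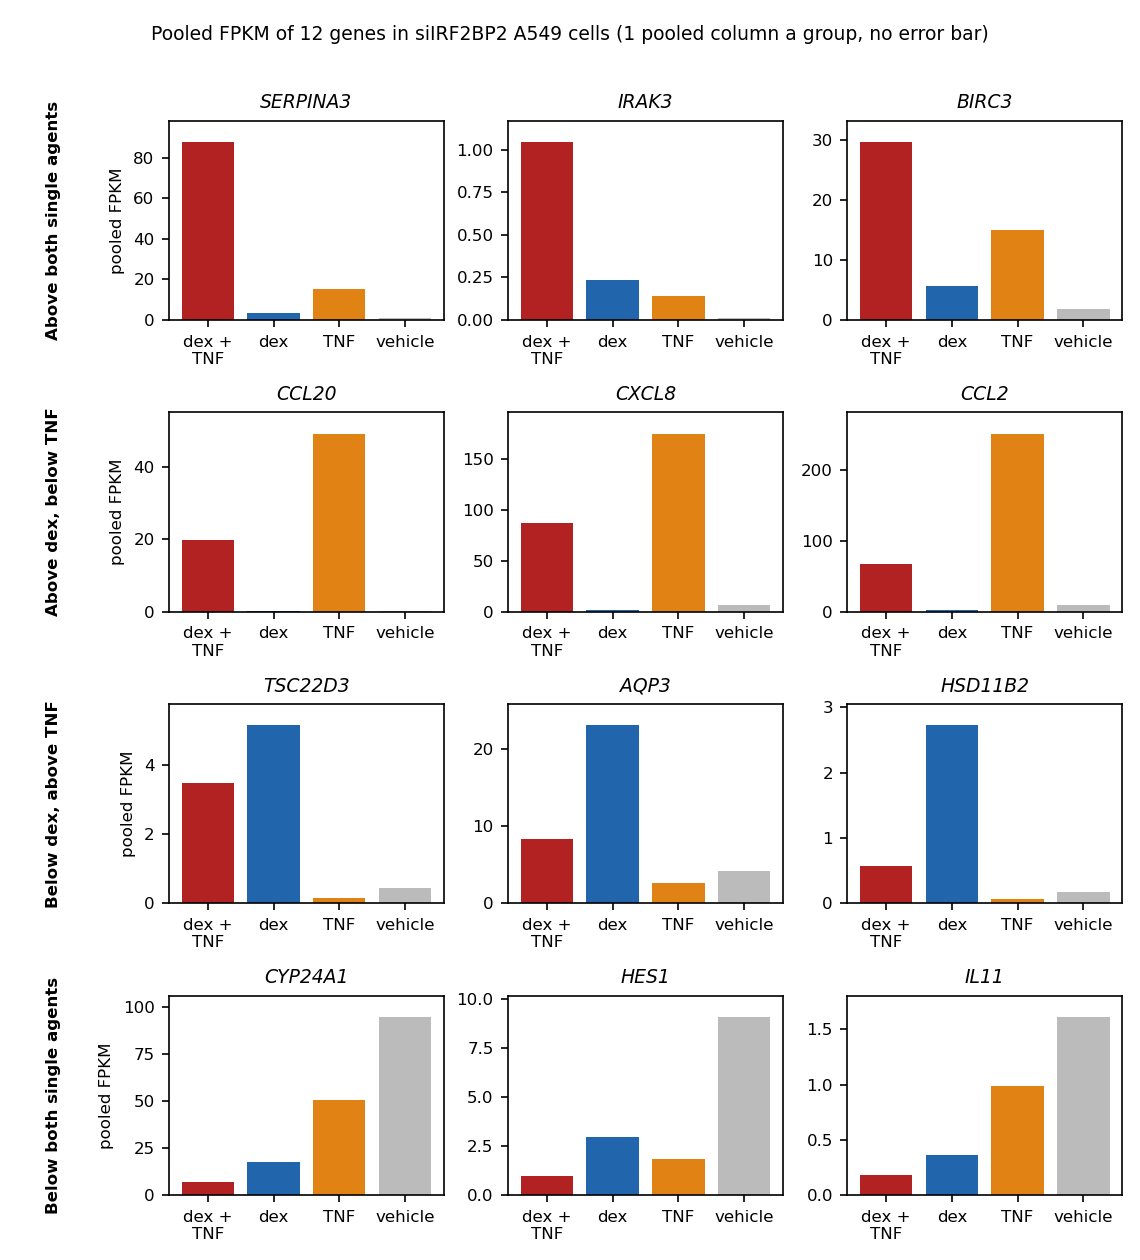
Pooled FPKM (linear axis from 0) of 12 genes in siIRF2BP2 cells with dex plus TNF, dex, TNF and vehicle, 1 bar per pooled column and no error bar. SERPINA3 reached 87.8 FPKM with both agents against 15.3 with TNF, CCL20 stood at 19.8 against 49.2 with TNF, TSC22D3 at 3.49 against 5.15 with dex, and CYP24A1 at 7.15 against 94.5 with vehicle.

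Of 46 genes known to be raised through the glucocorticoid receptor, 39 rose and 3 fell with both agents (14.1% and 13.0% over all genes), with a median log2 fold change of 1.58 in the authors' deposited table. With dex alone 38 rose and 2 fell with a median of 1.64, and with TNF alone 15 rose and 15 fell with a median of 0.07, against medians of 0.00 over all genes. FKBP5, a co-chaperone that restrains the receptor, had 2.27 FPKM with dex plus TNF, 2.98 with dex, 0.115 with TNF and 0.182 with vehicle. TSC22D3, a leucine zipper protein that mediates anti-inflammatory actions, had 3.49, 5.15, 0.168 and 0.450 FPKM. For both genes the joint level was close to that with dex but lower, with log2 fold changes against dex alone of -0.28 and -0.44 called in the authors' deposited table. Of the 46 genes, 16 were lower than with dex alone and 9 higher (8.72% and 11.1% over all genes), and 15 stood below dex and above TNF (0.88% over all genes). HSD11B2, which inactivates cortisol, had 0.579 FPKM with dex plus TNF, 2.72 with dex, 0.063 with TNF and 0.170 with vehicle. CIDEC, a lipid droplet protein, had 3.56, 12.03, 0.404 and 1.18 FPKM, and CDKN1C, an inhibitor of cyclin-dependent kinases, had 1.21, 4.34, 0.191 and 0.429 FPKM. These were the members that fell furthest short of dex alone, with log2 fold changes against dex of -2.11 for HSD11B2, -1.72 for CDKN1C and -1.65 for CIDEC in the authors' deposited table.

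Other members of that list had levels close to those with dex. PER1, a clock repressor, had 12.9 FPKM with dex plus TNF, 13.3 with dex, 1.65 with TNF and 1.40 with vehicle, and KLF9, a transcription factor, had 0.692, 0.738, 0.112 and 0.094 FPKM. DUSP1, a phosphatase that switches off p38 and JNK, had 160, 186, 48.1 and 46.0 FPKM. Their log2 fold changes against dex alone were 0.04, 0.02 and -0.11 and were not called in the authors' deposited table. A further 7 members stood above both single agents (2.69% over all genes). Among them MT2A, a metallothionein, had 429 FPKM with dex plus TNF, 320 with dex, 35.6 with TNF and 29.0 with vehicle. EDN1, the precursor of the vasoconstrictor endothelin, was 1 of the 3 members that fell, with 5.81, 5.88, 8.78 and 9.2 FPKM (log2 fold change -0.52 in the authors' deposited table).

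**Figure D2:**
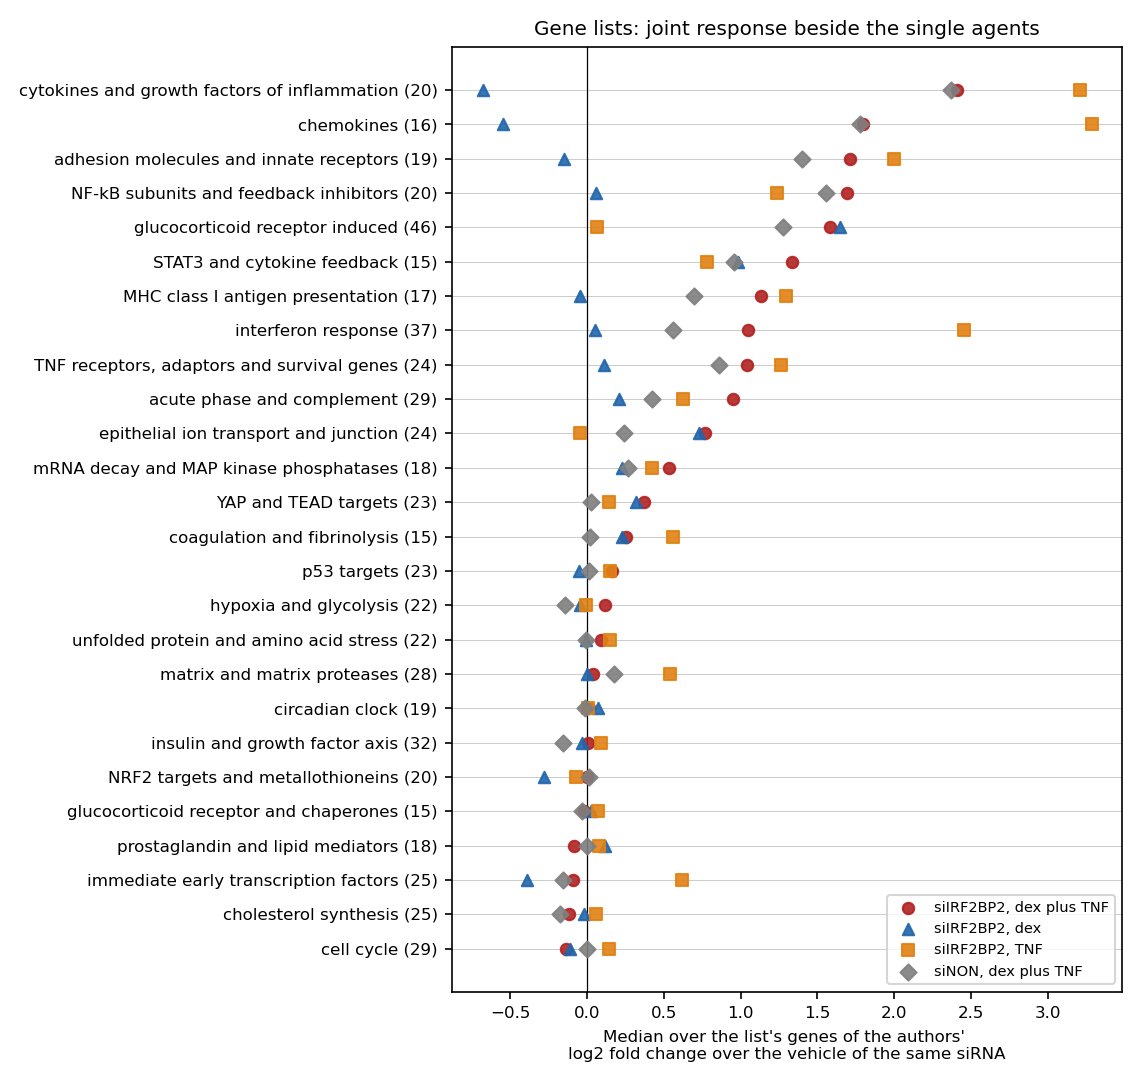
Median of the authors' log2 fold change over vehicle for 26 gene lists (number of genes in the table in brackets): dex plus TNF, dex and TNF in siIRF2BP2 cells and dex plus TNF in siNON cells. The chemokine median is 1.79 with both agents and 3.29 with TNF, the glucocorticoid receptor induced median 1.58 with both and 1.64 with dex, and the NF-kB feedback median 1.69 with both and 1.24 with TNF.

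The secreted signals that draw and activate leukocytes rose with both agents, but in most cases to less than with TNF alone. Of 16 chemokines, 11 rose and 1 fell with both agents (14.1% and 13.0% over all genes), with a median log2 fold change of 1.79. With TNF alone 12 rose (12.3% over all genes, median 3.29), in the authors' deposited table. None was higher with both agents than with TNF alone, and 11 were lower (8.7% and 7.35% over all genes). CXCL8, the main neutrophil attractant, had 86.9 FPKM with dex plus TNF, 1.72 with dex, 175 with TNF and 6.09 with vehicle. CCL2, which attracts monocytes, had 67.3, 2.44, 250 and 9.93 FPKM. CXCL5, a neutrophil attractant related to CXCL8, had 352, 47.9, 1013 and 126 FPKM. In all 3 genes dex alone gave the lowest level, and both agents together a level between vehicle and TNF. The folds against TNF alone were -0.98 for CXCL8, -1.86 for CCL2, -1.55 for CXCL1 and -2.15 for CXCL3 on the log2 scale in the authors' deposited table. CXCL2 departed from this order, with 34.1 FPKM with dex plus TNF, 13.9 with dex, 44.4 with TNF and 9.86 with vehicle, so that dex alone stood above vehicle (log2 fold change 0.58, called in the authors' deposited table). CXCL10 had a level with both agents close to that with TNF, with a log2 fold change of 0.01 that was not called in the authors' deposited table.

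Among 20 cytokines and growth factors of inflammation, 12 rose and 5 fell with both agents (14.1% and 13.0% over all genes). Against TNF alone 10 were lower and 3 higher (7.35% and 8.7% over all genes), in the authors' deposited table. IL6, an inducer of the acute phase, had 1.82 FPKM with dex plus TNF, 0.017 with dex, 4.96 with TNF and 0.110 with vehicle. IL23A, a subunit of interleukin 23, had 0.438, 0.073, 11.4 and 0.070 FPKM, on 24 reads with both agents and 4 with vehicle. LTB, a membrane-bound lymphotoxin subunit, had 2.77, 0.015, 15.3 and 0.043 FPKM, with 3 vehicle reads. IL23A showed the largest shortfall against TNF alone of the named cytokines, at -4.65 on the log2 scale in the authors' deposited table. IL32, an inducer of other cytokines, had 32.4 FPKM with dex plus TNF, 1.22 with dex, 29.8 with TNF and 1.37 with vehicle, and its fold against TNF alone (0.17) was not called in the authors' deposited table. The 3 cytokines above both single agents were CSF1, the macrophage growth factor, EBI3, a subunit of interleukins 27 and 35, and CSF3, the granulocyte growth factor. CSF1 had 8.47 FPKM with dex plus TNF, 1.16 with dex, 7.50 with TNF and 1.91 with vehicle, and EBI3 had 4.03, 0.139, 1.5 and 0.080 FPKM. CSF3 had 0.706 FPKM with dex plus TNF, 0.125 with dex and 0.146 with TNF, and was listed at 0 with vehicle. Those that fell besides IL11 included TNFSF15, a TNF family ligand, at -1.29, and TNFSF10, the death ligand TRAIL, at -0.62 in the authors' deposited table.

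Of 19 adhesion molecules and innate receptors, 15 rose and 1 fell with both agents (14.1% and 13.0% over all genes). The median log2 fold change was 1.72 in the authors' deposited table, against -0.15 with dex and 2.00 with TNF. From pooled FPKM with a pseudocount of 0.1 the joint median was 0.94. CD40, a TNF receptor family member that receives T cell help, had 1.90 FPKM with dex plus TNF, 0.629 with dex, 3.24 with TNF and 0.637 with vehicle. VCAM1, an adhesion molecule for lymphocytes, had 0.024, 0.001, 0.546 and 0.003 FPKM, with 17 reads with both agents, 502 with TNF and 2 with vehicle. TLR2, a receptor for bacterial lipoproteins, was instead highest with both agents, with 0.220 FPKM with dex plus TNF, 0.014 with dex, 0.070 with TNF and 0.009 with vehicle. Both agents together thus gave VCAM1 far less than TNF and TLR2 more than TNF, with log2 fold changes against TNF alone of -4.43 and 1.67 in the authors' deposited table. IFNGR1, a chain of the interferon gamma receptor, was also above both, with 7.53, 4.46, 6.42 and 2.16 FPKM. IL1R1, the receptor for interleukin 1, was the member that fell, with 0.723 FPKM with dex plus TNF, 0.95 with dex, 0.985 with TNF and 1.38 with vehicle (log2 fold change -0.80 in the authors' deposited table).

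Of 20 NF-kB subunits and feedback inhibitors, 17 rose and none fell with both agents (14.1% and 13.0% over all genes). Their median log2 fold change was 1.69 in the authors' deposited table. Against TNF alone 8 were higher and 6 lower (8.7% and 7.35% over all genes), with a median of 0.06. Above both single agents stood 8, and 5 were above dex and below TNF (2.69% and 1.34% over all genes). NFKBIA, the inhibitor IkB alpha, had 188 FPKM with dex plus TNF, 67.7 with dex, 147 with TNF and 27.4 with vehicle. TNFAIP3, the ubiquitin editor A20, had 22.3, 1.11, 19.6 and 0.600 FPKM. ZC3H12A, an RNase that degrades cytokine mRNA, had 18.2, 12.9, 7.55 and 5.60 FPKM. NFKBIA, TNFAIP3 and ZC3H12A each rose with either agent, and stood above TNF alone by 0.38, 0.21 and 1.30 on the log2 scale in the authors' deposited table. NFKBIE, the inhibitor IkB epsilon, had 8.11 FPKM with dex plus TNF, 0.772 with dex, 5.44 with TNF and 1.21 with vehicle, so that dex alone lowered it and both agents gave the highest level. The other 4 of the 8 were TNIP1, TNIP2, IRAK3 and RCAN1. The subunits behaved differently. NFKB2, the precursor p100, had 57.6 FPKM with dex plus TNF, 3.10 with dex, 77.2 with TNF and 7.34 with vehicle, and RELB, its partner, had 6.10, 0.339, 7.14 and 0.756 FPKM. RELB, NFKB1, NFKB2 and RELA were each above dex and below TNF, by -0.23, -0.64, -0.41 and -0.25 against TNF on the log2 scale in the authors' deposited table.

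Of 24 TNF receptors, adaptors and survival genes, all of at least 1 CPM, 21 rose and 1 fell with both agents. Over all genes of at least 1 CPM the shares were 24.8% and 22.8%. Against TNF alone 7 were higher and 7 lower (8.7% and 7.35% over all genes). The median joint log2 fold change was 1.04 in the authors' deposited table. BIRC3, the inhibitor of apoptosis cIAP2, had 29.6 FPKM with dex plus TNF, 5.65 with dex, 14.9 with TNF and 1.82 with vehicle. SOD2, the mitochondrial superoxide dismutase, had 243, 8.51, 217 and 9.77 FPKM. BCL2A1, an anti-apoptotic BCL2 relative, had 1.23, 0.035, 4.18 and 0.108 FPKM. BIRC3 was well above TNF alone, SOD2 slightly above it and BCL2A1 below it, with log2 fold changes against TNF of 1.01, 0.18 and -1.72, all called in the authors' deposited table. CFLAR, which blocks caspase 8, had 5.41 FPKM with dex plus TNF, 2.19 with dex, 4.31 with TNF and 1.66 with vehicle, and TNFRSF1B, TNF receptor 2, had 0.265, 0.023, 0.198 and 0.012 FPKM. TNFRSF1A, TNF receptor 1, was the member that fell, at 22.7 FPKM with dex plus TNF, 35.5 with dex, 19.9 with TNF and 32.7 with vehicle.

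Of 29 acute phase and complement genes, 14 rose and 4 fell with both agents (14.1% and 13.0% over all genes). The falls were thus near that share. The median log2 fold change was 0.95 in the authors' deposited table, or 0.29 from pooled FPKM with a pseudocount of 0.1. Of these genes, 9 stood above both single agents and 3 below both (2.69% and 1.25% over all genes), in the authors' deposited table. C3, the central complement component, had 11.3 FPKM with dex plus TNF, 2.97 with dex, 4.60 with TNF and 1.85 with vehicle. SERPINA1, the elastase inhibitor, had 0.601, 0.358, 0.300 and 0.296 FPKM, and LBP, which presents bacterial lipopolysaccharide, had 0.166, 0.122, 0.077 and 0.068 FPKM. The other members above both were SAA1, SAA2, SAA4, ORM1, SERPINA3 and CD59. CFB, complement factor B, had 39.4 FPKM with dex plus TNF, 4.23 with dex, 43.5 with TNF and 4.30 with vehicle, and its fold against TNF alone (-0.11) was not called in the authors' deposited table. The fibrinogen chains went the other way. FGA had 34.0 FPKM with dex plus TNF, 65.9 with dex, 40.4 with TNF and 41.6 with vehicle, FGB had 15.3, 25.4, 20.3 and 22.6 FPKM, and FGG had 14.6, 23.6, 20.2 and 21.4 FPKM. All 3 chains were higher with dex alone than with vehicle and lower with both agents than with vehicle, with joint log2 fold changes of -0.16, -0.42 and -0.40 in the authors' deposited table.

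Of 15 genes of STAT3 and cytokine feedback, 12 rose and 2 fell with both agents (14.1% and 13.0% over all genes). The falls were thus near that share. The median log2 fold change was 1.33, against 0.98 with dex and 0.78 with TNF in the authors' deposited table. STAT3, the transcription factor of IL6 signalling, had 6.83 FPKM with dex plus TNF, 5.11 with dex, 4.60 with TNF and 2.95 with vehicle. IL6ST, the shared receptor gp130, had 9.23, 7.94, 5.16 and 3.42 FPKM, and JAK2, the kinase that acts between receptor and STAT, had 0.378, 0.215, 0.276 and 0.113 FPKM. STAT3, IL6ST and JAK2 each rose with either agent and were highest with both, and so was STAT5A, at 4.62, 0.380, 2.92 and 0.286 FPKM. SOCS3, a feedback inhibitor of this pathway, had 17.6 FPKM with dex plus TNF, 22.6 with dex, 9.62 with TNF and 5.34 with vehicle. CISH, another inhibitor of the family, had 0.119, 0.666, 0.310 and 0.347 FPKM, and was the only member below both single agents, with a log2 fold change of -2.35 against dex alone in the authors' deposited table.

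Interferon response genes were mostly lower with both agents than with TNF alone. Of 37, 35 rose with TNF alone (12.3% over all genes) and 23 with both agents (14.1% over all genes). The median log2 fold change was 2.45 with TNF and 1.05 with both agents in the authors' deposited table. From pooled FPKM with a pseudocount of 0.1 the joint median was 0.42. With both agents 28 were lower than with TNF and none was higher (7.35% and 8.7% over all genes), in the authors' deposited table. IFIT1, which binds foreign RNA, had 0.539 FPKM with dex plus TNF, 0.608 with dex, 1.95 with TNF and 0.289 with vehicle. ISG15, a ubiquitin-like modifier, had 4.98, 4.17, 13.3 and 4.58 FPKM. MX1, a GTPase against viruses, had 0.255, 0.075, 1.19 and 0.063 FPKM. ISG15 with both agents was near its vehicle level, and its log2 fold change of 0.26 was not called in the authors' deposited table. IRF1, a transcription factor of both interferon and NF-kB responses, differed from these, with 20.6 FPKM with dex plus TNF, 2.30 with dex, 23.1 with TNF and 2.63 with vehicle, and its fold against TNF alone (-0.13) was not called in the authors' deposited table. GBP1, a guanylate-binding protein, had 2.62, 0.017, 4.68 and 0.027 FPKM. OAS1, a sensor of double-stranded RNA, was the member that fell with both agents, at -0.39 in the authors' deposited table.

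Genes of MHC class I antigen presentation rose with less loss against TNF. With both agents 16 of 17 rose and none fell (14.1% and 13.0% over all genes). Than with TNF alone 10 were lower and 2 higher (7.35% and 8.7% over all genes), in the authors' deposited table. B2M, the light chain of class I molecules, had 80.7 FPKM with dex plus TNF, 50.7 with dex, 99.0 with TNF and 55.2 with vehicle. The genes above both were TAP1, a subunit of the peptide transporter, with 42.8, 6.05, 24.2 and 5.08 FPKM, and its neighbour PSMB9, an immunoproteasome subunit, with 7.33, 1.06, 6.21 and 0.994 FPKM. TAP1 was above TNF alone by 0.86 and PSMB9 by 0.27 on the log2 scale in the authors' deposited table, while TAP2, the partner subunit, was at -0.28.

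**Figure D3:**
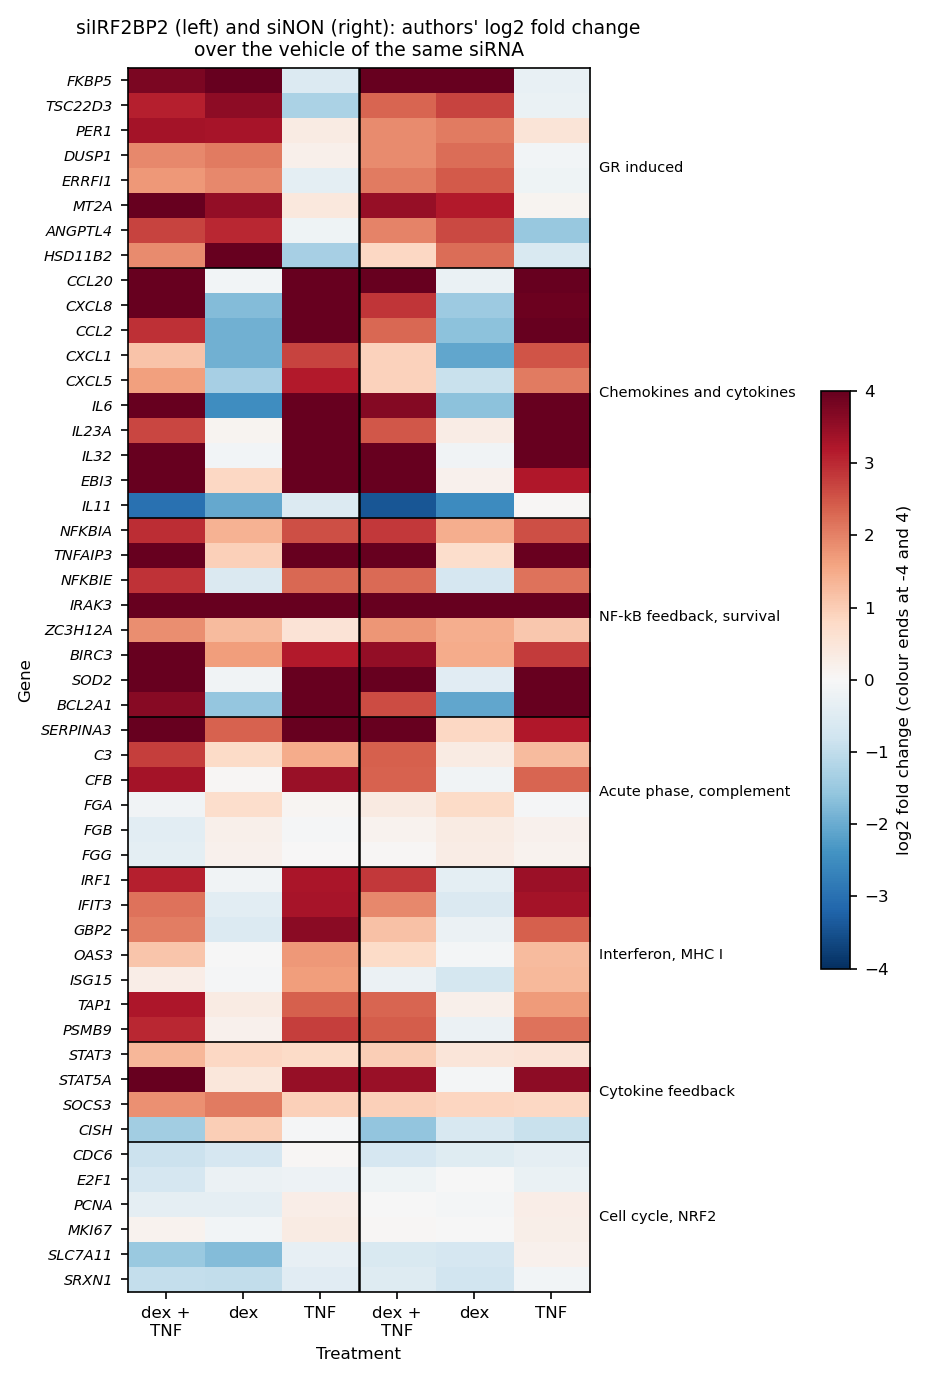
The authors' log2 fold change over the vehicle of the same siRNA for 49 genes (rows, by list), with dex plus TNF, dex and TNF in siIRF2BP2 cells (left) and in siNON cells (right); red is higher and blue lower than vehicle, with the colour ending at -4 and 4. CXCL8 is 3.98 with both agents and -1.72 with dex in siIRF2BP2 cells, ISG15 is near 0 with both agents, and CISH is -1.39 with both and 0.99 with dex.

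Of 18 genes that shorten mRNA and MAP kinase signals, 10 rose and 2 fell with both agents in the authors' deposited table. Their median log2 fold change was 0.53. Of the 17 of at least 1 CPM, 10 rose and 2 fell. The rises were above the 24.8%, and the falls below the 22.8%, of all genes of at least 1 CPM. ZFP36, which destabilizes TNF and other cytokine mRNA, had 81.8 FPKM with dex plus TNF, 78.5 with dex, 50.4 with TNF and 29.9 with vehicle. DUSP10, a phosphatase of p38 and JNK, had 0.246, 0.127, 0.708 and 0.243 FPKM, and was near its vehicle level with both agents (log2 fold change 0.14, not called in the authors' deposited table). DUSP4, a nuclear MAP kinase phosphatase, was below both single agents, with 9.94, 15.1, 14.9 and 18.9 FPKM. Of 25 immediate early factors 9 rose and 7 fell, with a median of -0.09 in the authors' deposited table. Of the 23 of at least 1 CPM, 9 rose and 7 fell, both above the 24.8% and 22.8% of all genes of at least 1 CPM. KLF4, an epithelial differentiation factor, had 24.8 FPKM with dex plus TNF, 7.23 with dex, 7.91 with TNF and 4.79 with vehicle, and FOSL2, a subunit of AP-1, had 22.8, 12.5, 10.9 and 7.53 FPKM. KLF4 and FOSL2 were highest with both agents. JUN, another AP-1 subunit, had 11.3 FPKM with dex plus TNF, 12.1 with dex, 25.3 with TNF and 20.1 with vehicle, and NR4A2, an orphan nuclear receptor, had 1.07, 0.676, 6.41 and 4.26 FPKM, so both were well below TNF alone, JUN at about its level with dex and NR4A2 above it.

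Of 18 genes of prostaglandin and lipid mediators, 5 rose and 1 fell with both agents and 12 were not called in the authors' deposited table. Of the 11 of at least 1 CPM, 4 rose and 1 fell. On these few genes the rises were above, and the falls below, the 24.8% and 22.8% of all genes of at least 1 CPM. PTGS2, the inducible cyclooxygenase, had 25.2 FPKM with dex plus TNF, 10.6 with dex, 76.7 with TNF and 30.7 with vehicle. HPGD, which inactivates prostaglandins, had 11.5, 10.1, 6.63 and 4.12 FPKM. PTGES, a prostaglandin E synthase, had 6.87, 2.95, 8.29 and 2.05 FPKM, and PTGER4, a receptor for prostaglandin E, had 0.684, 0.577, 0.182 and 0.102 FPKM. PTGS2 with both agents did not differ from vehicle by the authors' call (log2 fold change -0.15 in the authors' deposited table), while HPGD and PTGER4 were above both single agents.

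Among 24 genes of ion transport and junctions in the table, 13 rose and 6 fell with both agents in the authors' deposited table. Of the 19 of at least 1 CPM, 13 rose and 5 fell. Over all genes of at least 1 CPM the shares were 24.8% and 22.8%, so the falls were near that share. SCNN1A, the alpha subunit of the epithelial sodium channel, had 0.736 FPKM with dex plus TNF, 1.41 with dex, 0.186 with TNF and 0.391 with vehicle, and AQP3, a water and glycerol channel, had 8.34, 23.1, 2.58 and 4.17 FPKM. CLDN1, a tight junction claudin, had 10.5, 3.96, 17.4 and 5.53 FPKM, and CLDN2, a pore-forming claudin, had 15.1, 18.2, 37.0 and 34.1 FPKM. MUC1, a membrane mucin, had 15.4, 7.40, 7.73 and 3.49 FPKM. SCNN1A and AQP3 stood below dex and above TNF, CLDN1 above dex and below TNF, CLDN2 below both and MUC1 above both. Of 15 genes of coagulation and fibrinolysis, 9 rose and 2 fell in the authors' deposited table. The same numbers held for the 14 of at least 1 CPM, so the falls were below the 22.8% of genes of at least 1 CPM. PLAU, urokinase, had 18.7 FPKM with dex plus TNF, 11.1 with dex, 53.5 with TNF and 9.90 with vehicle, and THBD, thrombomodulin, had 57.0, 61.0, 17.6 and 13.2 FPKM. Of 28 matrix genes and proteases, 10 rose and 5 fell in the authors' deposited table. Of the 21 of at least 1 CPM, 10 rose and 4 fell, and these falls were near the 22.8% of genes of at least 1 CPM. LOX, which cross-links collagen, had 0.691 FPKM with dex plus TNF, 0.233 with dex, 0.149 with TNF and 0.076 with vehicle.

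Of 29 cell cycle genes, all of at least 1 CPM, 3 rose and 12 fell with both agents (24.8% and 22.8% over genes of at least 1 CPM). With TNF alone 13 rose and 2 fell (2942 and 2897 of the 13594 genes of at least 1 CPM). Against TNF alone, both agents gave 1 higher and 18 lower (2078 and 1786 of the 13594), in the authors' deposited table. CDC6, which loads the replicative helicase, had 1.93 FPKM with dex plus TNF, 2.31 with dex, 3.70 with TNF and 3.91 with vehicle. PCNA, the sliding clamp, had 14.9, 15.9, 23.8 and 21.2 FPKM, and E2F1, a transcription factor of S phase entry, had 2.37, 3.42, 3.32 and 4.19 FPKM. The shifts were small, with a median log2 fold change of -0.13 with both agents and 0.14 with TNF in the authors' deposited table. Of 20 NRF2 targets and metallothioneins, 7 rose and 9 fell in the authors' deposited table, and the 4 metallothioneins MT1F, MT1G, MT1X and MT2A were among those that rose. Of the 17 of at least 1 CPM, 6 rose and 9 fell, against 24.8% and 22.8% of all genes of at least 1 CPM. HMOX1, haem oxygenase, had 3.45 FPKM with dex plus TNF, 5.43 with dex, 4.59 with TNF and 8.42 with vehicle, and SLC7A11, the cystine transporter, had 1.06, 0.940, 2.33 and 3.19 FPKM.

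In the insulin and growth factor axis 8 of 32 rose and 12 fell in the authors' deposited table, against 24.8% and 22.8% of the genes of at least 1 CPM, so the rises were near that share. FOXO1, a transcription factor of fasting, had 0.260 FPKM with dex plus TNF, 0.196 with dex, 0.130 with TNF and 0.089 with vehicle, and ID3, an inhibitor of helix-loop-helix factors, had 32.5, 60.4, 99.6 and 87.2 FPKM. TGFB2, a transforming growth factor, had 0.112, 0.175, 0.391 and 0.388 FPKM and was below both, as ID3 was. In 6 further lists, 12 rose and 6 fell of 23 YAP and TEAD targets, 11 and 6 of 23 p53 targets, 9 and 5 of 22 hypoxia and glycolysis genes, 10 and 8 of 22 genes of stress from unfolded proteins or amino acid shortage, 6 and 7 of 25 cholesterol synthesis genes, and 6 and 4 of 19 clock genes, in the authors' deposited table. Genes of at least 1 CPM were called higher in 24.8% and lower in 22.8% of cases. The rises of cholesterol and clock genes were thus near that share, and those of the other 4 lists above it. The falls were near the 22.8% for YAP and TEAD, p53, hypoxia, cholesterol and clock genes, and above it for the stress genes. Among 15 genes of the receptor and its chaperones, NR3C1, the glucocorticoid receptor itself, had 1.01 FPKM with dex plus TNF, 0.749 with dex, 1.32 with TNF and 1.18 with vehicle, and its joint log2 fold change of -0.11 was not called in the authors' deposited table. HSD11B1, which regenerates cortisol, had 0.155, 0.050, 0.072 and 0.010 FPKM and was above both, whereas HSD11B2 was above TNF and below dex.

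Over all genes, 692 stood above vehicle and above both single agents (2.69%), and 321 below vehicle and below both (1.25%). A further 343 (1.34%) were above dex and below TNF, and 226 (0.88%) below dex and above TNF, in the authors' deposited table. To describe size, the sum of the log2 fold changes of dex and of TNF was taken from that of both agents, and the remainder was named the departure. Over 6472 called genes of at least 1 CPM the departure had a median of -0.01, quartiles of -0.17 and 0.17, and 5th and 95th percentiles of -0.59 and 0.69. All 3 folds share the vehicle samples, so the departure is a description with no test.

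By the largest positive departures, PRR15L stood first, on chromosome 17 (hg19, 46029334 to 46035243). It had 2.52 FPKM with dex plus TNF, 6.17 with dex, 0.014 with TNF and 1.41 with vehicle. TNF alone left 4 reads of the 312 seen with vehicle, and both agents gave a level above vehicle, with a departure of 5.14. JPH2, a junctional membrane protein, had 0.479, 0.313, 0.009 and 0.041 FPKM (departure 2.67), and NANOS1, an RNA-binding repressor, had 2.61, 1.19, 0.251 and 0.669 FPKM (departure 2.46). In JPH2 and NANOS1, too, TNF alone lowered the gene and both agents gave the highest level. SFRP5, a secreted Wnt antagonist, had 3.75 FPKM with dex plus TNF, 0.455 with dex, 0.068 with TNF and 0.046 with vehicle (departure 2.44). TCHH had 1.02, 0.043, 0.222 and 0.044 FPKM (departure 2.18), and C8orf46 had 0.413, 0.008, 0.069 and 0.010 FPKM (departure 2.81). SFRP5 was not called with TNF alone, nor TCHH and C8orf46 with dex alone, in the authors' deposited table, and all 3 were highest with both agents. CX3CL1, a membrane-bound chemokine, had 0.608, 0.004, 0.995 and 0.049 FPKM (departure 2.48), and here dex alone had lowered the gene. Where a level is low, a fold depends on the pseudocount. The vehicle levels of C8orf46, CX3CL1 and JPH2 were below 0.1 FPKM, so a pseudocount of 0.1 makes their ratios smaller. From pooled FPKM with a pseudocount of 0.1, the joint log2 fold change was 2.22 for C8orf46, 2.25 for CX3CL1 and 2.04 for JPH2. The authors' deposited table gave 5.52, 3.75 and 3.67 in the same order.

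The largest negative departures were of genes that TNF raised and that both agents raised less. Besides IL23A, VCAM1, UBD and MX1, they were OAS2, with 0.042 FPKM with dex plus TNF, 0.008 with dex, 0.231 with TNF and 0.006 with vehicle, LRRC32, a carrier of latent TGF beta, with 0.072, 0.013, 0.444 and 0.016 FPKM, and GBP4, with 0.213, 0.008, 0.767 and 0.006 FPKM. MX1 had the most vehicle reads of these, 91, and a departure of -2.45. The others had at most 8 vehicle reads, so their departures rest on few reads. SAA1 was also on this list by its fitted folds, but it was listed at 0 with vehicle, and its level was highest with both agents.

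The same treatment in siNON cells had 1964 genes higher (7.65%) and 1610 lower (6.27%) in the authors' deposited table. These samples are separate from those of siIRF2BP2 cells, and the difference between the responses was not tested in the table. Called in both were 3107 genes, 44.6% of the siIRF2BP2 calls and 86.9% of the siNON calls, and 3088 of them had the same sign. Among the 2929 of these with at least 1 CPM, the fold was larger in size with siIRF2BP2 in 2182 (74.5%), and the median size was 0.82 with siIRF2BP2 and 0.63 with siNON on the log2 scale. SERPINA3 had 87.8 FPKM with dex plus TNF and 0.740 with vehicle in siIRF2BP2 cells, and 30.2 and 0.700 FPKM in siNON cells. GBP1 stood at 6.72 with siIRF2BP2 and 5.60 with siNON, CFB at 3.34 and 2.36, and CXCL8 at 3.98 and 2.87 on the log2 scale in the authors' deposited table. FKBP5 stood at 3.77 and 4.0, CCL2 at 2.92 and 2.30, IRAK3 at 7.03 and 7.83 and IL11 at -2.99 and -3.41 in the same order. The CXCL8 level was lower in siIRF2BP2 cells than in siNON cells both with dex plus TNF (86.9 against 211 FPKM) and with vehicle (6.09 against 30.6 FPKM). By list, the median joint fold was 1.05 with siIRF2BP2 and 0.56 with siNON for interferon response genes, 1.13 and 0.70 for MHC class I genes, 0.95 and 0.42 for acute phase and complement genes, and 1.79 and 1.78 for chemokines, in the authors' deposited table. The chemokine medians differed once low genes were left out. Over the 11 chemokines of at least 1 CPM they were 2.31 with siIRF2BP2 and 1.84 with siNON in the authors' deposited table. Cell cycle genes had 3 rises and 12 falls with siIRF2BP2, and 1 rise and 2 falls with siNON. Calls with siNON were fewer over all genes too. Of the 13594 genes of at least 1 CPM, 3375 rose and 3097 fell with siIRF2BP2, and 1789 rose and 1499 fell with siNON. Some single genes, picked after their values were seen, differed more. KLF15, a transcription factor raised by glucocorticoids, stood at 4.88 with siIRF2BP2, on 4 vehicle reads, and 1.25 with siNON in the authors' deposited table. HK2, a hexokinase, stood at 0.31 (not called) and -2.35, and IL1B, the precursor of interleukin 1 beta, at -0.02 (not called) and 2.27 in the authors' deposited table.

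**Figure D4:**
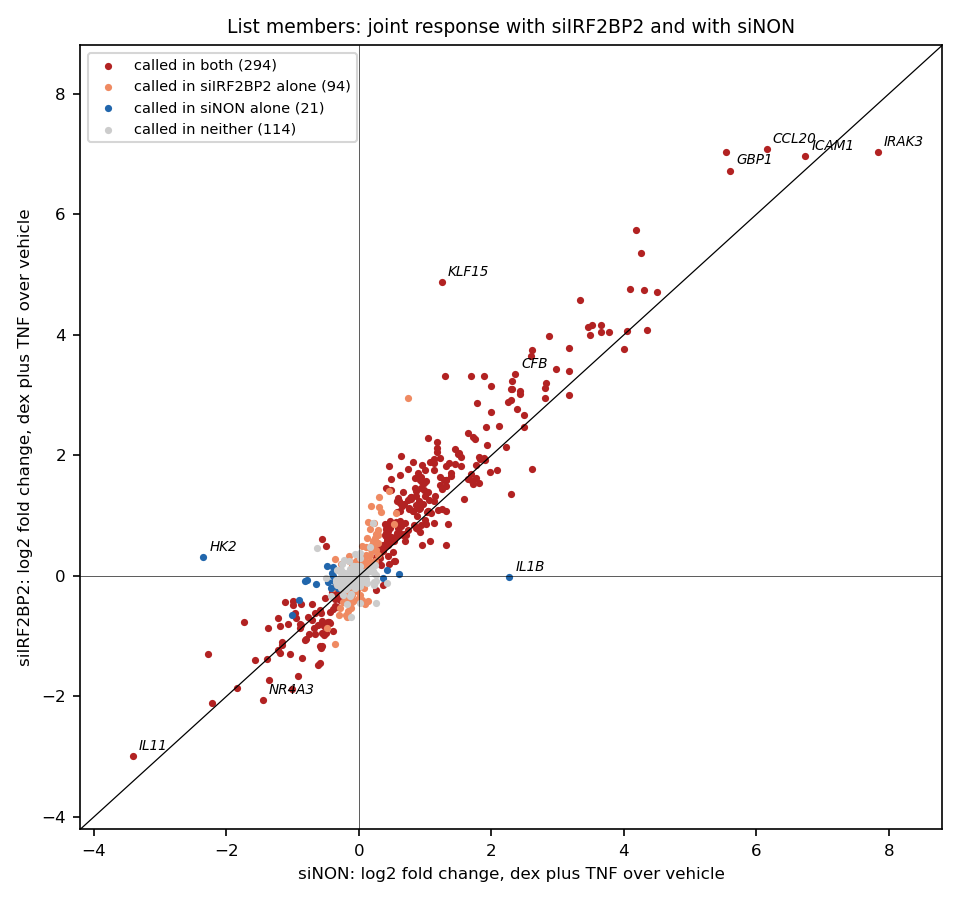
The authors' log2 fold change of dex plus TNF over vehicle in siIRF2BP2 cells (vertical) and in siNON cells (horizontal) for 523 list members of at least 1 CPM and over 3 reads in both vehicles, 1 point per gene, with the line of equal folds. Of 294 genes called in both, 216 were larger in size with siIRF2BP2, while IRAK3 and IL11 were larger with siNON.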

How the data were processed

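RNA-seq of A549 cells was deposited as 1 table with 1 row per transcript and 1 column of FPKM for each of 8 groups, pooled by the authors over 3 replicates. FPKM (reads scaled by transcript length and by tags) was made by the authors, with the length given as the genomic span in most transcripts, per the file headers and the values. The authors' deposited log2 fold changes, p-values and FDR values compare the replicates of pairs of groups, second named over first; the test behind them is not given in the sources used here. The submitters' processing notes name Trimmomatic 0.33, FastQC, TopHat2, Bowtie2, HOMER, edgeR and hg19, with no role or order. Strand use in counting is not given in the sources used here, so reads of overlapping genes on opposite strands cannot be told apart, and overlapping transcripts share reads.

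For each of 25689 symbols the transcript with the most reads (FPKM times length) over the 8 columns was used, of 48118 in all. CPM and reads were computed from FPKM, length and the tags of a column. The tags were taken as the total that brought the values of 807 to 910 transcripts a column closest to whole reads. At that total 100% of these same values were whole within 0.01 reads plus the rounding of FPKM. Calls are the authors' FDR under 0.05 over the whole table, and no test of a difference was run here, since pooled columns hold no spread. The precision of a level is therefore unknown beyond its reads.

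The members and the 30 gene lists were chosen with earlier results of these data known. Genes were named by rule: IRF2BP2, the 12 largest rises and 12 largest falls (at least 5 CPM, called), up to 5 members of each list with the smallest p, more for textbook members, and the 8 largest departures each way. MUC5AC and TIGAR were not found by symbol and were not analysed here. Some genes that the rule names are not reported here. Genes with at most 3 vehicle reads are given as levels with no fold over vehicle. Promoters (250 bases before the start) came from RefSeq, GRCh38.p14, and were matched by symbol. The read recovery and the direction of ratios of pooled FPKM were tested on simulated data, and the authors' calls were not. Python 3.11.15, pandas 2.3.3, numpy 2.4.6 and matplotlib 3.10.9 were used. Alternatives were a stricter FDR, a fold limit, a filter on low genes, other transcripts, Benjamini-Hochberg adjustment over the chosen transcripts, and ratios of pooled FPKM with pseudocounts of 0.1 and 1 and another scaling.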

Additional observations from a re-analysis of the deposited data

Results flagged for a closer look

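Among 17 genes of at least 5 CPM whose joint response was called in opposite directions with the 2 siRNAs in the authors' deposited table, 4 belong to the gene lists. The difference between the siRNAs was not tested for any of them. ADM, the precursor of the vasodilator adrenomedullin, had a log2 fold change of dex plus TNF over vehicle of 0.617 with siIRF2BP2 and -0.549 with siNON in the authors' deposited table. Its levels were 30.8 FPKM with dex plus TNF and 21.8 with vehicle in siIRF2BP2 cells, and 31.5 and 49.4 FPKM in siNON cells, so the joint levels were alike and the vehicle levels were not. ISG20, an interferon-induced exonuclease, stood at 0.494 with siIRF2BP2 and -0.495 with siNON in the authors' deposited table, on 2.56 and 1.99 FPKM in siIRF2BP2 cells and 1.81 and 2.80 FPKM in siNON cells. AMIGO2, a cell adhesion protein, stood at -0.231 and 0.254 in the authors' deposited table. FGA, the fibrinogen alpha chain, stood at -0.156 and 0.369 in the authors' deposited table, on 34.0 and 41.6 FPKM in siIRF2BP2 cells and 15.0 and 12.5 FPKM in siNON cells.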

How the results depend on the processing

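No paired analysis was possible because the deposited columns are pooled over the replicates, and for the same reason no replicate could be left out. At an FDR under 0.01, in genes of at least 1 CPM, with the longest or shortest transcript, or with Benjamini-Hochberg adjustment over the chosen transcripts, the 6 counts of calls stayed within 1.5 times. Requiring a log2 fold change of 1 in size left 1051 genes higher and 739 lower with dex plus TNF than with vehicle, 695 and 395 against dex alone, and 586 and 371 against TNF alone. The median departure was -0.0145 from the authors' folds. From pooled FPKM it was 0.0264 with a pseudocount of 0.1, 0.00858 with a pseudocount of 1 and 0.00609 with median-of-ratios scaling, so its sign is not fixed and it is near 0. Ratios of pooled FPKM were shifted by -0.125 on the log2 scale against the authors' folds in the median gene of at least 1 CPM, and 6952 of 6959 called genes kept their direction. Over 3 settings of pooled ratios, 421 values of named genes differed from the authors' fold by more than counting error and 155 by less, and none of the called ones reversed. With the longest transcript all 192 stayed within it. Pooled ratios with a pseudocount of 0.1, which differ from the authors' folds in both respects, gave a median of 0.40 for cytokines, against 2.41 from the authors' folds, and 1.38 for chemokines, against 1.79. Depth limits genes with few vehicle reads, for which folds are not given, and the spread between replicates is not in the pooled columns.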
